A study of Mus musculus with 9 samples.

Results

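Of the transcription factors known to steer CD8 T cells towards effector or memory fates, 10 were followed across wild-type cells and cells in which the genes for CTCF or for both Tcf1 and Lef1 had been targeted: Tbx21, Eomes, Id2, Id3, Prdm1, Zeb2, Bcl6, Irf4, Irf8 and Myb. They were taken by symbol from a deposited table of 23946 genes, and all 10 were found there. The wild-type (WT), CTCF-/- (CTCF KO) and Tcf1-/-Lef1-/- (DKO) groups had 3 libraries each, 9 in all. The donors of every group carried hCD2-Cre, a Cre recombinase under human CD2 control, and Rosa26-lsl-GFP, a reporter that Cre switches on. Ctcf was floxed in the donors of CTCF KO cells, and Tcf1 and Lef1 in those of DKO cells. Naive CD8+ T cells, enriched from spleens by depletion, received CTV, a dye that division dilutes, before transfer to Rag1 KO hosts, which lack T and B cells but keep myeloid and natural killer (NK) cells. After 72 h of homeostatic proliferation, cells positive for CTV, TCRβ, GFP and CD8 were sorted from the host spleens. The source names also read "stim CD8". The age of the mice, and whether replicate libraries stem from different animals, are not given in the sources used here, so p-values capture the variation among these libraries alone, which may be technical.

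T-bet, encoded by Tbx21, and Eomes are related T-box factors that switch on killer and cytokine genes; high T-bet is linked to short-lived effector cells and Eomes to memory cells. Id2 and Id3 bind E proteins and keep them from DNA, with Id2 linked to effector and Id3 to memory precursor cells. Blimp-1 (Prdm1) and Zeb2 are repressors that promote terminal effector differentiation, and Bcl6 is a repressor that opposes Blimp-1. Irf4 is induced by antigen receptor signalling, Irf8 acts with it in activated CD8 T cells and is also a defining factor of dendritic cells and B cells, and Myb supports stem-like cells and cell division.

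Values are the FPKM that the authors deposited, fragment numbers corrected for transcript length and for library size, so levels of different genes can be compared per length. A gene was tested where it had at least 1 FPKM in at least 3 libraries, which left 10172 genes. Fold changes were fitted with limma on log2(FPKM + 1), a scale that understates the change of genes with low values, and calls were made where the two-sided p, adjusted by Benjamini-Hochberg over all tested genes, was under 0.05. Of the 10 factors, 7 were tested; Zeb2, Bcl6 and Irf4 were too low. Prdm1 reached 1 FPKM only in the 3 DKO libraries, so it passed the filter only through the group in which it was high, and counts over the tested factors describe those 7 and not all 10.

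Library sums ran from 629663 to 702470 FPKM. The table holds no counts, but in low genes the values fell on steps, and the size of a step gave relative depths of 0.658 to 1.23 times that of WT library 1, lowest in CTCF KO library 3. CD8 T cell markers were high in every library (summed FPKM of 10 genes 6576 to 8197), while Cd4 stayed at or below 0.98 FPKM. The list of 4 CD4 T cell genes summed to 2.26 to 3.45 FPKM in WT, 1.13 to 2.31 in CTCF KO and 104.6 to 115.9 in DKO, where Foxp3, the defining factor of regulatory T cells, rose to 109 ± 5.84 from 0.877 ± 0.216 (adjusted p = 3.45e-09). Its part in the DKO values was not tested. Of the targeted genes, Ctcf was not called lower in CTCF KO (18.3 ± 1.64 FPKM against 23.9 ± 7.7 in WT; adjusted p = 0.319). Lef1 fell to 90.7 ± 4.41 from 346 ± 12.4 in DKO (adjusted p = 1.35e-08), and Tcf7 RNA was higher there (342 ± 11.3 against 257 ± 6.43; adjusted p = 0.000223), so each group is meant below as it is labelled. The CTCF KO libraries also differed from the other 6 in genes of the sex chromosomes: the summed FPKM of the Y-linked genes Ddx3y, Eif2s3y, Uty and Kdm5d was 90.02 to 100.9 in them and at most 2.03 elsewhere, so sex and genotype cannot be told apart in comparisons with this group. In such bulk samples, fewer cells expressing a gene and less RNA per cell cannot be told apart.

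Because the groups differ in CTCF and in the Tcf1 and Lef1 factors, the start regions of the 10 genes were searched on both strands, in windows from 250 bases before to 50 after each RefSeq start (build GRCm38.p6; 15 windows, since some genes have several starts), for the core of the CTCF motif and for a Tcf/Lef core ending in A or T (CTTTGA and CTTTGT). The Tbx21 window held the CTCF core, a match found in 0.326% of all 32851 windows. Below, its 250 bases before the start are shown with the match in capitals, because Tbx21 was called lower in CTCF KO. The Prdm1 window, of the factor that rose most in DKO, is shown beside it and held none of the 3 motifs. For Myb, which fell most in DKO, a stretch of 30 bases just inside the transcript is given, with its match to CTTTGT in capitals.
Tbx21, chr11:97115332-97115581, minus strand: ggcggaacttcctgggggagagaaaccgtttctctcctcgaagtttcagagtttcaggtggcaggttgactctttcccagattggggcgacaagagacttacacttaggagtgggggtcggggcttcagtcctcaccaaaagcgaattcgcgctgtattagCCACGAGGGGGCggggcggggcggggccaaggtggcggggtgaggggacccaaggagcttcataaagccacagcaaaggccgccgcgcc
Prdm1, chr10:44458749-44458998, minus strand: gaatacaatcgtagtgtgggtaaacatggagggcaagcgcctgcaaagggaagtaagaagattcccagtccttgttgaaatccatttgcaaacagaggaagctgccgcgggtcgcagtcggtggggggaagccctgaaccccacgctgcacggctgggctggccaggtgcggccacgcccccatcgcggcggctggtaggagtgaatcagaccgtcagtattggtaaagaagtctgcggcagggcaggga
Myb, chr10:21160951-21160980, minus strand: gtgtccaaacctCTTTGTttgatggcatct

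The CTCF core in the Tbx21 window ran from base -89 to base -78, counted from the start. It is a match of letters and no measure of binding. Of the 44 tested genes with a CTCF core in a window, 4 (9.09%) were called lower in CTCF KO against WT and 3 (6.82%) higher, where 6.37% and 5.78% of all tested genes were. CTTTGA occurred in 16.003% of all windows and in 1 of the 15 windows of the factors, at 1 of the 2 starts of Bcl6. CTTTGT occurred in 18.7% of all windows and in 3 of the 15, those of Myb, of the same start of Bcl6 and of 1 of the 4 starts of Zeb2.

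Levels of the factors spanned a wide range. In WT cells the order by mean FPKM was Id3 (181 ± 3.13), Id2 (132 ± 1.09), Tbx21 (30.9 ± 1.05), Irf8 (23.3 ± 1.56), Eomes (12.9 ± 9.21), Myb (5.96 ± 1.31), Bcl6 (0.938 ± 0.147), Irf4 (0.702 ± 0.467), Prdm1 (0.385 ± 0.155) and Zeb2 (0.34 ± 0.101). Id3, Id2, Tbx21 and Irf8 did not overlap in WT, whereas Irf8 (lowest 21.6) overlapped with Eomes (highest 23.4), and Eomes with Myb. Of the 4 lowest factors, Bcl6 (lowest 0.799) lay above Prdm1 (highest 0.516) and Zeb2 (highest 0.448), and the others overlapped. In CTCF KO cells Id3 (157 ± 9.69) and Id2 (152 ± 7.12) overlapped, and in DKO cells Id3 (327 ± 15.03) stood far above Id2 (61.0 ± 4.27).

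**Figure D1:**
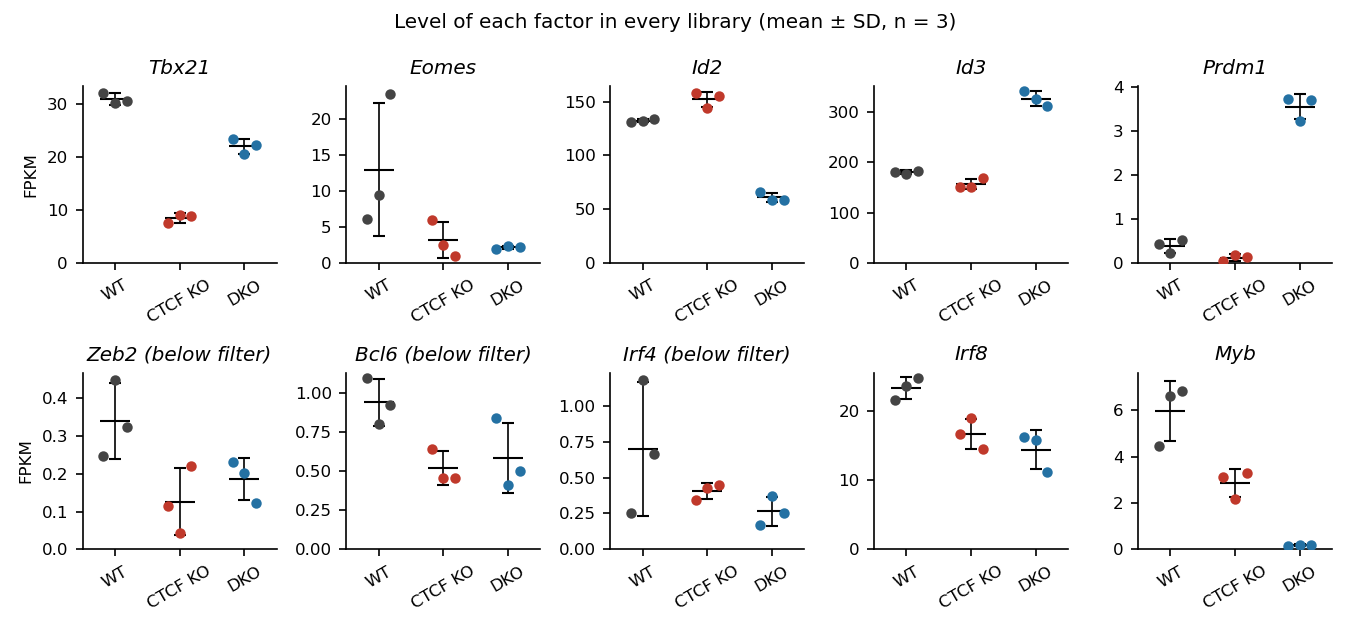
FPKM of each of the 10 factors in every library of WT, CTCF KO and DKO cells; points are libraries, and bars give mean ± SD (n = 3). Tbx21 was lowest in CTCF KO, Prdm1 was above 3 FPKM in the DKO libraries alone, and Myb was near 0 in DKO, while Eomes spread from 6.05 to 23.4 among the WT libraries.

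Against WT, CTCF KO cells had less Tbx21 and less Myb, and no factor was called higher. Of the 7 tested factors 2 were called lower and 0 higher by limma (5 and 1 at an unadjusted p under 0.05), where 12.2% of all tested genes were called, 6.37% lower and 5.78% higher. Their median log2 fold change was -0.46, beside 0.01 over all tested genes. All 7 had libraries that did not overlap between the groups, 6 of them with WT higher (Id2 was the exception), where 30.4% of tested genes did not overlap. DKO cells differed from WT in all 7: 5 were called lower (Tbx21, Eomes, Id2, Irf8 and Myb) and 2 higher (Id3 and Prdm1), where 40.4% of tested genes were called, 21.9% lower and 18.5% higher, and the median was -0.67 beside 0.01. All 7 were again without overlap, where 54.1% of tested genes were. Between the knockouts, 3 were higher in DKO (Tbx21, Id3 and Prdm1) and 2 lower (Id2 and Myb), where 38.0% of tested genes were called, 16.2% higher and 21.8% lower; 5 of the 7 did not overlap, where 52.4% of tested genes did not. The comparisons with WT share the WT libraries, so they are given side by side and not counted together.

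**Figure D2:**
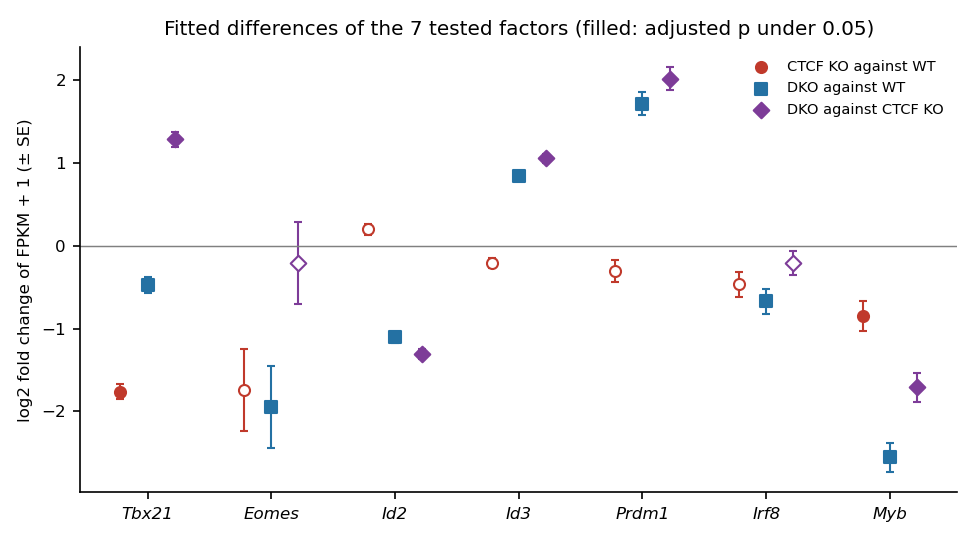
Log2 fold change of FPKM + 1 with its standard error for the 7 tested factors in the 3 comparisons; filled symbols have an adjusted p under 0.05. Tbx21 fell in both knockouts against WT but by 1.76 in CTCF KO and by 0.47 in DKO, and Id2, Id3 and Prdm1 were called in comparisons with DKO alone.

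Tbx21, the gene of T-bet (chromosome 11, 96959321 to 96976645 in the deposited table) had 32.1, 30.2 and 30.4 FPKM in the WT libraries, 7.46, 8.99 and 8.88 in CTCF KO and 23.3, 20.5 and 22.2 in DKO. No library of one group overlapped with another group, and CTCF KO was lowest. The fall in CTCF KO was 3.66-fold in the means (log2 fold change -1.76, SE 0.0957, adjusted p = 6.69e-06), the 27th largest fall among all tested genes. In DKO the fall was 1.41-fold (log2 fold change -0.47, SE 0.0957, adjusted p = 0.00391), and DKO lay above CTCF KO by 1.29 on the log2 scale (adjusted p = 1.01e-05). The tested genes whose pattern over the 9 libraries was most like that of Tbx21 were Gem, a small GTPase gene, and S100a6, a calcium-binding protein gene; after centring, they differed from it by a root mean square of 0.121 and 0.155 log2 units. Gem had 7.95 ± 0.677 FPKM in WT, 1.97 ± 0.43 in CTCF KO and 5.50 ± 0.334 in DKO.

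Eomes (chromosome 9, 118387307 to 118395250) had 6.05, 9.38 and 23.4 FPKM in WT, 5.91, 2.46 and 1.001 in CTCF KO and 1.96, 2.35 and 2.15 in DKO. The WT libraries differed among themselves by more than the lowest of them differed from the highest CTCF KO library. The SD was 9.21 FPKM in WT and 2.52 in CTCF KO, while the DKO libraries lay close together (SD 0.194). Both knockouts were below every WT library. Eomes fell in DKO (log2 fold change -1.95, SE 0.499, adjusted p = 0.0128), and in CTCF KO its log2 fold change of -1.74 (SE 0.499) did not pass the test at an adjusted p of 0.0523. It passed without CTCF KO library 1 (adjusted p = 0.0219) or WT library 1 (adjusted p = 0.0295), but not with any other single library left out. Quantile normalization (adjusted p = 0.0355), equal medians (adjusted p = 0.0469) and removal of the trend on transcript GC (adjusted p = 0.048) also gave a pass. A pseudocount of 0.1, other filters, a fit of the compared groups alone, no intensity trend and a replicate block did not. The adjusted p over all alternatives ran from 0.0193 to 0.281. The authors' deposited table gives a q-value of 0.000488 for the same comparison. DKO and CTCF KO overlapped, at a difference of -0.21 (adjusted p = 0.774). The most similar pattern, at a root mean square of 0.477, was that of Klrg1, a receptor gene that marks terminal effector cells, with 2.72 ± 0.865 FPKM in WT, 0.588 ± 0.508 in CTCF KO and 0.0463 ± 0.0802 in DKO.

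Within WT and within CTCF KO, the libraries had the same order in Eomes as in the level of genes with GC-rich transcripts. In that level, CTCF KO libraries 2 and 3 were nearly tied. In DKO the orders differed for libraries 1 and 3, which were also nearly tied. The part of GC content in the spread was not tested beyond the alternative below. The longest Eomes transcript (GENCODE M21) has a 200-base window of 81.0% GC, which puts it among the tenth of tested genes with the most GC-rich windows (894 of 9419 with a transcript, from 79.0% GC). The median log2 deviation of these genes from their own means was -0.44, -0.24 and 0.08 in the WT libraries, in the same order as Eomes, and 0.00, -0.34 and -0.35 in CTCF KO, where Eomes was also highest in the first. In DKO it was 0.36, 0.60 and 0.35, the highest of all, while Eomes was low. With each library's trend on window GC taken out, an alternative chosen after seeing the data, the fall of Eomes was -2.48 in DKO (adjusted p = 0.000943) and -1.73 in CTCF KO (adjusted p = 0.0193). Tbx21, with a window of 76.5% GC, fell by 1.76 in CTCF KO and by 0.66 in DKO under the same setting.

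**Figure D3:**
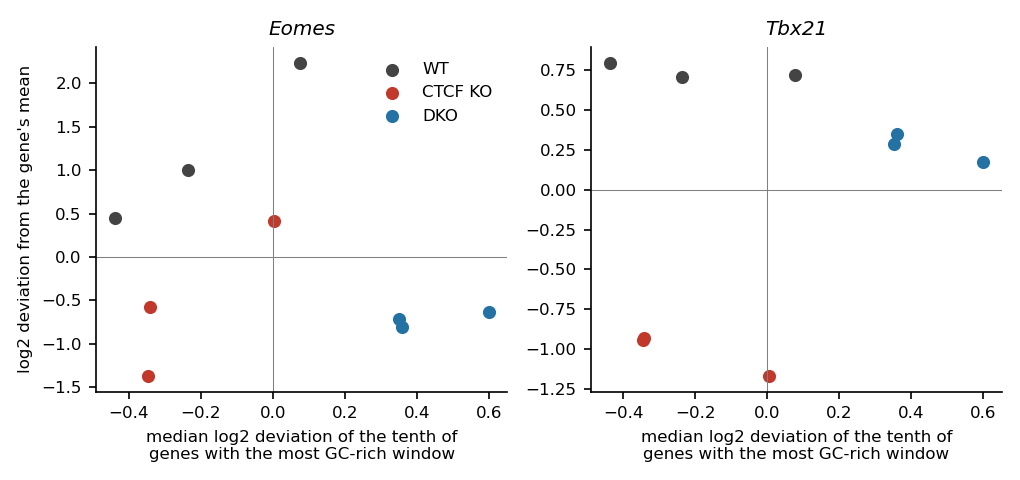
Log2 deviation of Eomes (left) and Tbx21 (right) from their own mean over 9 libraries against the median log2 deviation of the 894 tested genes with the most GC-rich windows; each point is a library. Eomes ranked with this value inside WT, whereas the WT libraries of Tbx21 lay at 0.71 to 0.80 whatever the value, and the DKO libraries lay farthest right, at 0.35 to 0.60.

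The ratio of Tbx21 to Eomes FPKM was 5.31, 3.22 and 1.30 in WT, 1.26, 3.65 and 8.87 in CTCF KO and 11.9, 8.72 and 10.3 in DKO. CTCF KO overlapped with WT and also with DKO (8.87 in CTCF KO library 3, 8.72 in the lowest DKO library). DKO lay above WT in every library. The log2 ratio of FPKM + 1 was 2.87 on average in DKO, 1.40 in WT and 1.37 in CTCF KO. DKO exceeded WT by 1.47 (exact permutation test, two-sided, p = 0.1, the smallest that 3 against 3 allows). The difference was 0.96 without WT library 3 and at most 1.89 without any other single library. DKO exceeded CTCF KO by 1.49 (exact p = 0.1), and by 0.95 without CTCF KO library 1. With 1 added to each FPKM, the highest log2 ratio in CTCF KO was 2.30 and the lowest in DKO 2.68, without overlap. CTCF KO differed from WT by -0.02 (exact p = 0.9).

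Genes that T-bet and Eomes are known to act on went different ways in the knockouts. Of 19 tested genes of a list of 20, 0 rose (1 at an unadjusted p under 0.05) and 11 fell in CTCF KO, with a median log2 fold change of -1.10. The share called was 57.9%, beside 12.2% of all tested genes. The falls were led by Cxcr3, a chemokine receptor gene (20.2 ± 1.26 against 92.8 ± 6.16 FPKM), and by the genes of the chemokine Ccl5 and the granzyme Gzma. In DKO, 10 rose and 6 fell, with a median of 0.51, although Tbx21 and Eomes were both lower there; Gzma rose to 709 ± 69.2 from 26.0 ± 1.63 FPKM and Fasl, the death ligand gene, to 133 ± 6.64 from 5.74 ± 0.263. Between the knockouts 11 were higher and 2 lower in DKO. The share called was 84.2% in DKO against WT and 68.4% between the knockouts, beside 40.4% and 38.0% of all tested genes. Markers of NK cells, which use both T-box factors, had a summed FPKM of 91.4 to 95.8 in WT, 78.8 to 84.8 in CTCF KO and 81.4 to 97.6 in DKO, most of it from Tyrobp and Fcer1g, while Ncr1 stayed at or below 1.71 FPKM; of 6 tested, only Klre1 fell in each knockout against WT. This is 16.7% of the tested markers in each comparison, beside 12.2% and 40.4% of all tested genes. Klre1 reached 1 FPKM in 3 WT libraries, 1 CTCF KO library and 0 DKO libraries, so it passed the filter only because of WT. Neutrophil markers also moved with the groups, at a summed FPKM of 43.5 to 56.7 in WT, 15.1 to 18.8 in CTCF KO and 0.841 to 1.56 in DKO. The part of other cells in the values of these factors was not tested.

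The Id genes changed in opposite directions in DKO. Id2 (chromosome 12, 25778664 to 25780957) had 131, 132 and 133 FPKM in WT, 158, 144 and 155 in CTCF KO and 66.0, 58.8 and 58.3 in DKO, with DKO below every other library. It fell 2.17-fold in DKO against WT (log2 fold change -1.11, SE 0.0639, adjusted p = 1.51e-06) and lay below CTCF KO by 1.31 (adjusted p = 7.59e-07). Id3 (chromosome 4, 135699737 to 135701307) had 181, 178 and 184 FPKM in WT, 152, 151 and 168 in CTCF KO and 343, 326 and 313 in DKO, with DKO above every other library. It rose 1.81-fold in DKO against WT (log2 fold change 0.85, SE 0.0588, adjusted p = 4.8e-06) and exceeded CTCF KO by 1.06 (adjusted p = 1.59e-06). In CTCF KO the differences from WT were small and not called, at 0.20 for Id2 (adjusted p = 0.0774) and -0.21 for Id3 (adjusted p = 0.0521), though neither gene's libraries overlapped. Both were called, in those directions, when the trend on transcript GC was taken out (adjusted p = 0.0447 and 0.0223), with adjusted p over the alternatives of 0.0447 to 0.248 and 0.0199 to 0.23.

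The Id2 to Id3 ratio of FPKM was 0.724, 0.744 and 0.725 in WT, 1.04, 0.956 and 0.922 in CTCF KO and 0.192, 0.18 and 0.186 in DKO. The 3 groups did not overlap: the ratio was highest in CTCF KO and lowest in DKO. On the log2(FPKM + 1) scale DKO lay below WT by 1.96 and CTCF KO above it by 0.41, each with an exact two-sided permutation p of 0.1, the smallest possible. Patterns most like Id3 were those of Fos, an AP-1 subunit gene (root mean square 0.0735; 154 ± 4.02, 126 ± 12.5 and 259 ± 3.56 FPKM in WT, CTCF KO and DKO), and Plac8. Those most like Id2 were Pole2, which encodes a DNA polymerase subunit (0.0959; 28.7 ± 0.524, 32.4 ± 2.23 and 14.2 ± 0.277 FPKM), and Sfxn1, a mitochondrial serine carrier gene.

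**Figure D4:**
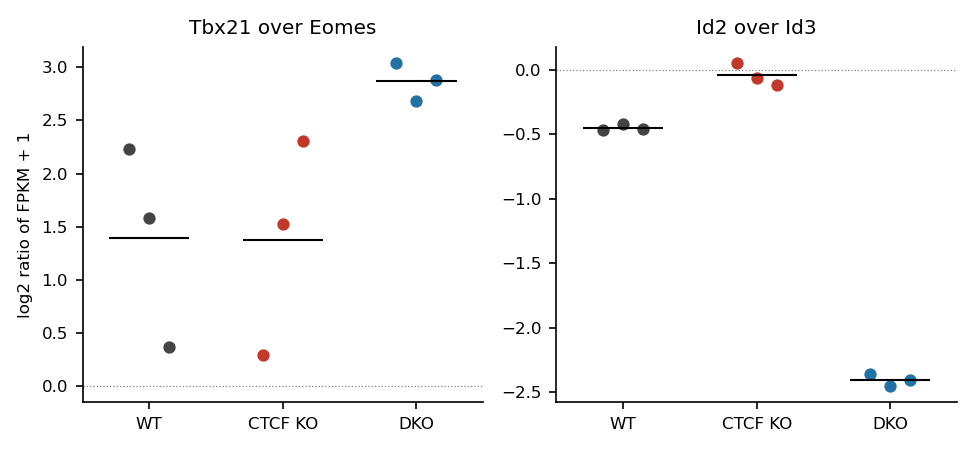
Log2 ratio of FPKM + 1 for Tbx21 over Eomes (left) and Id2 over Id3 (right) in each library, with group means as lines (n = 3). The Tbx21 to Eomes ratio overlapped between WT and CTCF KO and was 2.68 to 3.04 in DKO, and the Id2 to Id3 ratio separated all 3 groups.

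E proteins and their partners were measured in part. Of 12 listed genes 6 were tested; in CTCF KO 0 were called by limma, and 0 had an unadjusted p under 0.05, among them the E protein gene Tcf3 at 38.2 ± 19.0 against 45.7 ± 30.2 FPKM, so that its libraries varied widely within groups. In DKO against WT 3 rose and 0 fell: Hes1, a Notch target and repressor (2.32 ± 0.827 against 0.12 ± 0.137 FPKM), Gfi1, a repressor of lymphocyte genes (4.17 ± 3.49 against 0.474 ± 0.218), and Ets1 (359 ± 5.91 against 311 ± 20.9). Hes1 and Gfi1 reached 1 FPKM only in DKO and so, like Prdm1, passed the filter only through the group in which they were high. In DKO 3 of the 6 tested genes were not called, where 40.4% of all tested genes were called. In CTCF KO, where 0 of the 6 were called, the share over all tested genes was 12.2%.

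Among the repressors, Prdm1 was the factor with the largest rise. Prdm1 (chromosome 10, 44156981 to 44178493) had 0.425, 0.214 and 0.516 FPKM in WT, 0.0421, 0.175 and 0.141 in CTCF KO and 3.72, 3.22 and 3.70 in DKO. Every DKO library was above every other library, and every CTCF KO library below every WT library. From the step sizes and the transcript length, the CTCF KO values stand for about 5 to 18 fragments, those of WT for 20 to 46 and those of DKO for 300 to 366. The means of DKO and WT differed 9.2-fold, with a log2 fold change of 1.72 (SE 0.137, adjusted p = 1.28e-05), and DKO exceeded CTCF KO by 2.02 (adjusted p = 5.61e-06). CTCF KO differed from WT by -0.30 (SE 0.137), which was not called (adjusted p = 0.203). Even in DKO, Prdm1 was above only 19.9% of tested genes in level. Of the 5 plasma cell markers in the table, Tnfrsf17 was listed at 0 in every library, Sdc1 and Igj stayed at or below 0.181 FPKM, Mzb1 had 0.326 to 0.677 FPKM in WT and at most 0.083 elsewhere, and only Xbp1 passed the filter. The list summed to 38.4 to 43.5 FPKM in WT, 38.5 to 46.1 in CTCF KO and 41.8 to 48.6 in DKO, and its part in Prdm1 was not tested. Nccrp1 (root mean square 0.134) and Nr4a1, an antigen receptor response gene (0.161), had the most similar patterns, with Nr4a1 at 21.0 ± 1.0004, 17.9 ± 1.29 and 65.2 ± 4.46 FPKM in WT, CTCF KO and DKO.

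Bcl6 and Zeb2 were below the filter. Bcl6 (chromosome 16, 23965138 to 23988698) had 1.09, 0.799 and 0.922 FPKM in WT, 0.642, 0.456 and 0.458 in CTCF KO and 0.839, 0.41 and 0.499 in DKO, so that WT lay above every CTCF KO library and overlapped with DKO. Zeb2 (chromosome 2, 44839032 to 44969604) had 0.248, 0.448 and 0.324 FPKM in WT, 0.114, 0.0438 and 0.221 in CTCF KO and 0.232, 0.202 and 0.123 in DKO, with every WT library above every knockout library. Fitted without the filter, Bcl6 differed from WT by -0.35 in CTCF KO (adjusted p = 0.137) and by -0.30 in DKO (adjusted p = 0.104), and Zeb2 by -0.25 (adjusted p = 0.105) and -0.175 (adjusted p = 0.143). At about 8 to 71 fragments a library for Zeb2 and 19 to 69 for Bcl6, differences of this size did not pass the test.

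Genes tied to Blimp-1 and Bcl6 moved in both directions. Of 14 tested of 22 listed, 1 rose and 3 fell in CTCF KO and 2 rose and 5 fell in DKO, with medians of 0.02 and 0.08. The share called in CTCF KO was 28.6%, beside 12.2% of all tested genes. In DKO 7 of the 14 were not called, where 40.4% of all tested genes were called. Cxcr5, the follicular homing receptor gene, fell from 6.36 ± 1.86 FPKM to 1.07 ± 0.56 in CTCF KO (adjusted p = 0.00103) and to 0.0935 ± 0.0778 in DKO. Zbtb32, a repressor gene, fell from 3.001 ± 0.346 to 0.596 ± 0.249 and 0.209 ± 0.164. Il2ra, the high-affinity IL-2 receptor chain, rose in DKO to 2.41 ± 0.414 from 0.404 ± 0.146. Il2ra reached 1 FPKM only in DKO and Zbtb32 only in WT, so each passed the filter through its highest group alone. Cxcr5 reached 1 FPKM in 3 WT libraries, 1 CTCF KO library and 0 DKO libraries, so it too passed only because of WT. Between the knockouts, Bach2, a repressor that restrains effector differentiation, was lower in DKO (3.67 ± 0.393 against 6.54 ± 0.47 FPKM; adjusted p = 0.00135). Of 11 tested genes around Zeb2 and TGF-beta signalling, 1 rose in CTCF KO (Tgfbr2) and 4 in DKO, with 0 lower in either (1 and 0 at an unadjusted p under 0.05). These are 9.09% and 36.4% of the list, beside 12.2% and 40.4% of all tested genes. Cdh1, the E-cadherin gene that Zeb factors repress in epithelial cells, rose in DKO to 34.2 ± 3.92 from 1.06 ± 0.0963 FPKM.

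Of the interferon regulatory factors, Irf8 (chromosome 8, 123260276 to 123280592) had 21.6, 23.6 and 24.7 FPKM in WT, 16.6, 18.9 and 14.5 in CTCF KO and 16.3, 15.8 and 11.2 in DKO. Both knockouts lay below every WT library and overlapped with each other. Irf8 fell in DKO (log2 fold change -0.67, SE 0.149, adjusted p = 0.00638); in CTCF KO the difference of -0.46 (SE 0.149) was not called (adjusted p = 0.0797). It passed without DKO library 3 (adjusted p = 0.0352) or with the trend on transcript GC taken out (adjusted p = 0.044), the adjusted p over the alternatives running from 0.0352 to 0.23. RNA of markers of cells that use Irf8 strongly was found in all groups, and whether such cells were present was not tested. Macrophage and monocyte markers summed to 103 to 113 FPKM in WT, 102 to 111 in CTCF KO and 101 to 119 in DKO. Dendritic cell markers, mostly H2-Aa, summed to 88.4 to 101.1 in WT, 88.7 to 98.5 in CTCF KO and 118 to 141 in DKO. Within these lists, Lyz2, a macrophage and neutrophil gene, fell from 30.3 ± 4.91 FPKM to 18.8 ± 0.954 in CTCF KO (adjusted p = 0.0125) and to 19.5 ± 2.65 in DKO (adjusted p = 0.00608). Siglech, a plasmacytoid dendritic cell gene, fell in DKO to 1.02 ± 0.0665 from 2.35 ± 0.243 (adjusted p = 0.00375). Other genes of these lists rose in DKO against WT. C1qa (mean 9.69 against 6.63 FPKM, adjusted p = 0.0392) and C1qc (23.7 against 18.4, adjusted p = 0.0364) did so among macrophage markers. Among dendritic cell markers, H2-Aa (122 against 85.1, adjusted p = 0.00147) and Xcr1 (1.77 against 0.878, adjusted p = 0.0128) did. Xcr1 reached 1 FPKM in 3 DKO libraries, 1 WT library and 0 CTCF KO libraries, so it passed the filter only because of DKO. Each list had 2 genes called higher and 1 lower in DKO, of 8 and 6 tested. The part of any such cells in Irf8 was not tested. B cell markers summed to 58.5 to 62.3 FPKM in WT, 34.1 to 37.8 in CTCF KO and 99.5 to 118 in DKO, nearly all from Cd79b, while Pax5 was listed at 0 in every library.

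Irf4 (chromosome 13, 30841127 to 30858796) had 0.252, 1.18 and 0.668 FPKM in WT, 0.344, 0.429 and 0.451 in CTCF KO and 0.172, 0.373 and 0.252 in DKO, and all 3 groups overlapped. Fitted without the filter, DKO differed from WT by -0.39 (adjusted p = 0.162) and CTCF KO by -0.24 (adjusted p = 0.569), while the authors' deposited table gives q-values of 0.0332 and 0.186. Of 14 tested genes of the Irf family and its partners, 1 rose and 0 fell in CTCF KO (1 fell at an unadjusted p under 0.05). The gene that rose was Irf7, to 111 ± 5.97 from 73.7 ± 6.08 FPKM. The share called was 7.14%, beside 12.2% of all tested genes. In DKO 6 rose and 1 fell, with a median of 0.43. There 7 of the 14 were not called, where 40.4% of all tested genes were called. In DKO, Irf7 rose to 157 ± 9.02 FPKM and Irf1, an activator of interferon response genes, to 243 ± 14.04 from 174 ± 21.8.

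Myb (chromosome 10, 20844736 to 20880790) fell in both knockouts. It had 4.46, 6.61 and 6.82 FPKM in WT, 3.12, 2.18 and 3.28 in CTCF KO and 0.128, 0.18 and 0.2 in DKO, with no overlap between any pair of groups. The DKO values stand for about 9 to 14 fragments a library, against 295 to 423 in WT. The fall was 35.2-fold in the means in DKO (log2 fold change -2.56, SE 0.178, adjusted p = 5.02e-06) and 2.09-fold in CTCF KO (log2 fold change -0.85, SE 0.178, adjusted p = 0.0145), and DKO lay below CTCF KO by 1.71 (adjusted p = 9.2e-05). Without CTCF KO library 2, WT library 2 or WT library 3 the call in CTCF KO was lost (adjusted p = 0.052, 0.063 and 0.0509). The patterns most like it were those of Ska1, a spindle and kinetochore gene (root mean square 0.156; 9.80 ± 1.2, 4.92 ± 0.616 and 0.793 ± 0.26 FPKM in WT, CTCF KO and DKO), and of its relative Mybl2, a regulator of cell cycle genes (0.207; 11.8 ± 1.85, 7.23 ± 0.229 and 1.80 ± 0.38). Of 9 tested genes of the Myb family and its known targets, 1 rose and 3 fell in CTCF KO and 4 rose and 1 fell in DKO. The shares called were 44.4% and 55.6%, beside 12.2% and 40.4% of all tested genes. Bcl2, a survival gene that Myb is known to activate, rose in both, from 96.8 ± 1.18 FPKM to 145 ± 10.01 and 184 ± 8.02, and Gata3 fell in CTCF KO to 16.2 ± 1.44 and rose in DKO to 88.0 ± 1.49 from 21.4 ± 0.38.

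Because CTCF anchors chromatin loops, the chromosomal neighbours of the 7 tested factors were examined. The nearest tested gene on each side, by start, gave 14 neighbours, of which 1 was called higher and 0 lower in CTCF KO against WT, and 1 higher and 4 lower in DKO against WT. These are 7.14% and 35.7% of the neighbours, beside 12.2% and 40.4% of all tested genes. The one in CTCF KO was Ahi1, beside Myb, at 5.44 ± 0.20 against 3.28 ± 0.034 FPKM (log2 fold change 0.59, adjusted p = 0.0171), opposite in direction to Myb. On either side of Tbx21, Osbpl7 (12.9 ± 1.57 FPKM in WT) differed by 0.23 in CTCF KO (adjusted p = 0.252) and Kpnb1 (8.54 ± 0.629) by 0.22 (adjusted p = 0.248). Their starts lie 47187 and 61703 bases from that of Tbx21. In DKO, E2f2, which starts 28572 bases from Id3 and encodes a cell cycle factor, fell from 6.68 ± 2.02 to 2.70 ± 0.0448 FPKM (adjusted p = 0.00148) while Id3 rose. Golga4, which starts 28129 bases from Eomes, was not called in either knockout against WT (adjusted p = 0.676 and 0.104), and Atg5, 168817 bases from Prdm1, was not called in DKO (0.08, adjusted p = 0.564).

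**Figure D5:**
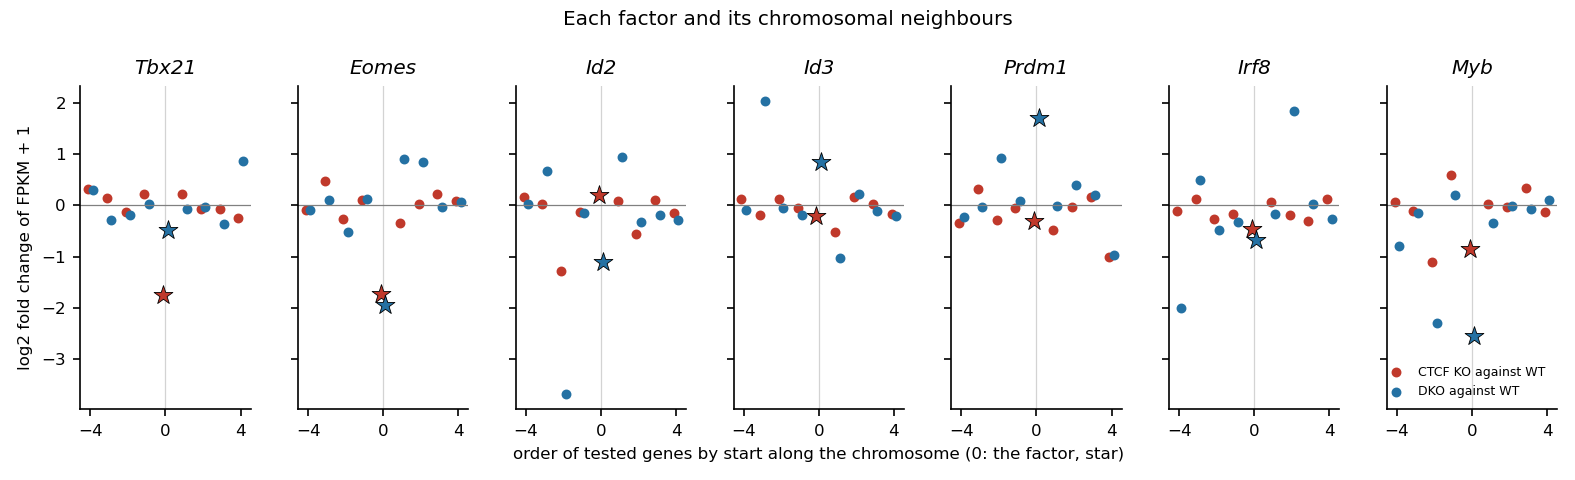
Log2 fold change of FPKM + 1 against WT for each tested factor (star) and up to 4 tested genes on each side in order along the chromosome (points), in CTCF KO (red) and DKO (blue). Around Tbx21 the neighbours in CTCF KO lay near 0 while Tbx21 was at -1.76; of all 56 neighbours drawn, 2 were called higher and 5 lower in CTCF KO.

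Of 29 tested other effector and memory factors (35 listed), 1 rose (Lef1) and 3 fell in CTCF KO, 13.8% called beside 12.2% of all tested genes, with a median of -0.05. Hopx, a cofactor of late effector and memory cells, fell to 37.0 ± 1.36 from 86.1 ± 9.81 FPKM and Stat4, which carries the IL-12 signal, to 104 ± 7.69 from 144 ± 12.6. In DKO 19 rose and 4 fell, 79.3% beside 40.4%, with a median of 0.62, led by the fall of Lef1 and the rises of Gata3 and Nr4a1. Of 18 surface markers of effector and memory cells, 2 rose and 5 fell in CTCF KO (38.9% called) and 5 rose and 10 fell in DKO (83.3%). Ly6c2, a marker of memory and effector CD8 T cells, fell to 352.5 ± 27.0 from 799 ± 100.9 FPKM in CTCF KO and to 19.5 ± 1.51 in DKO, the second largest fall of all tested genes there. Cd44, an activation marker, fell to 6.43 ± 0.996 from 13.2 ± 0.881 FPKM in CTCF KO, and Il2rb, the shared IL-2 and IL-15 receptor chain, to 94.5 ± 4.56 from 192 ± 2.56. Itgae, the CD103 integrin chain of resident cells, rose in DKO to 527 ± 17.3 from 84.1 ± 5.33 FPKM, and Cxcr6, a receptor of resident and effector cells, to 394 ± 18.4 from 80.6 ± 7.41.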

How the data were processed

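RNA-seq libraries of sorted CD8 T cells were analysed from 1 table. The deposited values are FPKM per library; the deposited p-values and q-values are those of the authors' own pairwise comparisons. The submitters' processing notes name FastQC, TopHat2 2.1.0, Cuffdiff 2.2.1 and both mm9 and mm10; scaling and annotation are not given in the sources used here. Of 22463 genes matched by symbol, 968 started within 1000 bases of GRCm38, so the table's positions are not on that build; starts were counted from 1 by adding 1. Columns labelled DKO were tied to the group alone, since their numbers differ between labels.

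All 9 libraries entered 1 limma 3.58.1 fit (R 4.3.3; group means, intensity trend) on log2(FPKM + 1); it was tested on simulated data. Ratios were compared with exact permutation tests (scipy 1.17.1). Fragment numbers are estimates from step sizes in genes under 0.3 FPKM and the longest GENCODE M21 transcript. Promoter sequences come from RefSeq, GRCm38.p6; all 10 genes matched. From each gene list, the 3 called genes of lowest adjusted p (with no call, the 2 of highest mean level) could be named, though not every such gene is reported here; for each tested factor its nearest neighbours, and for each called factor the 2 most similar patterns by root mean square difference. Members, lists and tests were chosen with earlier results of these data known. Alternatives were another pseudocount, filters, scalings, fits, GC corrections, a replicate block and leaving out each library.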

Additional observations from a re-analysis of the deposited data

How the results depend on the processing

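Of 379 fold changes of single factors under alternatives, 362 kept direction and side of the threshold, 12 newly passed, 4 no longer passed and 1 turned: Eomes between the knockouts, not called, went to 0.26 without CTCF KO library 1 and ran down to -0.64 without CTCF KO library 3. The Tbx21 to Eomes ratio of CTCF KO against WT, near 0, turned to 0.25 with a pseudocount of 0.1 and 0.04 with quantile normalization, and ran from -0.53 to 0.52 without single libraries. Factors called lower in CTCF KO numbered 1 with a mean of at least 5 FPKM (where Prdm1 and Myb were not tested, which also left 1 higher in DKO against WT and 1 lower between the knockouts), 5 (and 1 higher) with the trend on transcript GC taken out, 4 with that on window GC, and 1 to 3 without single libraries. All genes called in CTCF KO against WT numbered 763 to 1183 without single libraries, against 1236; they were 812 without CTCF KO library 2, 807 without CTCF KO library 3 and 763 without WT library 2. With a replicate block the count was 297 and 1 factor, Tbx21, was lower (adjusted p = 0.0105). The numbers did not pair the libraries: deviations of same-numbered CTCF KO and WT libraries correlated at -0.619, 0.158 and -0.447. A block with DKO was not fitted, since its columns carry no number tied to a sample. Low values limit what can be read from Zeb2, Bcl6, Irf4 and, outside DKO, Prdm1.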
